A study of Homo sapiens with 32 samples.

Results

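The regulators of G-protein signaling (RGS proteins) are followed here through 10 genes, RGS2, RGS3, RGS4, RGS5, RGS10, RGS12, RGS16, RGS17, RGS19 and RGS20, picked by gene symbol from 47137 gene entries, of which 18583 had values. All 10 were found, and 8 had enough counts for a test. RNA came from HGrC1 cells, an immortalized line from human granulosa, the steroid-producing layer of the ovarian follicle. Vials of these cells that had been frozen separately, 4 in all, were each split into a vehicle control (0.05% DMSO) and cultures dosed anew at every passage with 0.01, 0.1 or 1 µM perfluorooctane sulfonate (PFOS), a persistent fluorinated surfactant. Each culture was sequenced once after 6 weeks and once after 12 weeks, which gave 32 libraries in 8 groups of 4. The control was therefore passaged for as long as the exposed cells, and all groups shared one medium with 10% fetal bovine serum and 100 nM of a steroid, named as estradiol by the sample labels and as testosterone by the study's methods.

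An RGS protein shortens the signal of a G-protein-coupled receptor. The receptor loads GTP onto a G alpha subunit, and the RGS domain speeds up the hydrolysis of that GTP, so that the subunit rejoins G beta and gamma and falls silent. G-protein-coupled receptors of the ovary include those for follicle-stimulating hormone, luteinizing hormone and prostaglandins. Whether the members act on the signal of each of these was not tested. The members fall into 3 subfamilies: RGS2, RGS3, RGS4, RGS5 and RGS16 belong to R4, RGS10 and RGS12 to R12, and RGS17, RGS19 and RGS20 to RZ. R4 members act on G alpha i and G alpha q, with RGS2 preferring G alpha q, whereas RZ members are known for acting on G alpha z and G alpha i.

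Depth was even, with 17907057 to 18553350 counts in total for each library. Of 15 granulosa markers, 13 had values. AMHR2 and CYP19A1, the aromatase, were at or under 3 counts in every library, and FOXL2 lay between 13 and 28 counts in the control libraries. In the 6-week control GATA4 held 2403 to 2568 counts, FST 389 to 500, INHBA 292 to 412, AMH 210 to 290 and INHBB 103 to 145. HSD17B1 held 68 to 86 there, STAR 47 to 58, CYP11A1 20 to 42, INHA 13 to 24 and NR5A1 1 to 10. The receptors FSHR and LHCGR were among the entries without values. Transcripts typical of liver (ALB, AFP, AHSG, APOB) summed to 0 or 1 counts in the control and to 0 in the 0.01 µM group at 6 weeks, to 67 to 164 counts in the other libraries, and to 799 in the control of vial 3 at 12 weeks. Some of the tests of the members that rest on that library are also given without it.

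Sequences before the start sites are shown for RGS2, RGS4 and RGS5, all on chromosome 1, because the largest differences with PFOS (RGS2) and with time (RGS4 and RGS5) are theirs. Each is a 300-base RefSeq window on GRCh38.p14, read 5′ to 3′ on the strand of the gene, from 250 bases before the gene start of the deposited annotation to 50 after it. The windows are chr1:192808789-192809088 (plus strand) for RGS2, chr1:163068621-163068920 (plus strand) for RGS4 and chr1:163321686-163321985 (minus strand) for RGS5. Capitals mark matches, on either strand, to these motifs. The TATA box was searched as TATAAA and the cAMP response element as TGACGTCA or by its first letters, TGACG. The AP-1 site was searched as TGANTCA, the GC box as GGGCGG and the box bound by NF-Y as CCAAT.
RGS2: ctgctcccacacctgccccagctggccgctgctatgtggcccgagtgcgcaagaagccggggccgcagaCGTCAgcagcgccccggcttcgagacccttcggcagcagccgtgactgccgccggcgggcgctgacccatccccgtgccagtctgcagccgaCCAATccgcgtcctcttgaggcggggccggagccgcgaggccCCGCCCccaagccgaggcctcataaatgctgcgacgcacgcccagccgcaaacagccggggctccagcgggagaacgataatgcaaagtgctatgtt
RGS4: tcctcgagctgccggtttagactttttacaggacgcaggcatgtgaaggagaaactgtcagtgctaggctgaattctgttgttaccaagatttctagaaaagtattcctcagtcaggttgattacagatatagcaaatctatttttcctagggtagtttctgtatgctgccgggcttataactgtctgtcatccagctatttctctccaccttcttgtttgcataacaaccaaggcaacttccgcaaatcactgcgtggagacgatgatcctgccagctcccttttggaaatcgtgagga
RGS5: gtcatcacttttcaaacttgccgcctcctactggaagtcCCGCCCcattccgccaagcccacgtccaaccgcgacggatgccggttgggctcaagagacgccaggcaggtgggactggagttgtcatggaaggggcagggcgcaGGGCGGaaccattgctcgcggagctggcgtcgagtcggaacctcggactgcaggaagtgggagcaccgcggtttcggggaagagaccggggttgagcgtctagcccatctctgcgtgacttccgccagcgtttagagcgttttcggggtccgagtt
RGS2 held TGACG, part of a cAMP response element, at −181 to −177 relative to the start site, CCAAT at −89 to −85 and GGGCGG at −47 to −42. RGS5 held GGGCGG at −211 to −206 and at −106 to −101. No motif of the set was found in this RGS4 window, whose GC content was 44.7% against 69.7% for RGS2 and 63% for RGS5. RGS4 has 4 promoter windows, RGS5 2 and RGS2 1, and only the window at the gene start is given here. Of 35116 promoter windows of this length, 24.6% held TGACG, 34.6% CCAAT, 45% GGGCGG, 11.5% TATAAA, 7.71% TGANTCA and 1.85% TGACGTCA. The RGS5 window also covers the start of NUF2, a kinetochore gene on the opposite strand that begins 219 bases away.

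On GRCh38, as the deposited annotation gives it, RGS3 spans 113444730 to 113597738 of chromosome 9, RGS10 119499817 to 119542719 of chromosome 10, RGS12 3285891 to 3439913 of chromosome 4 and RGS2 192809039 to 192812275 of chromosome 1. Levels of the members were compared per length, in TPM, the share of transcripts after division by length. RGS3, which can act on both G alpha i and G alpha q, had the highest level in the 6-week control, 55.4 ± 1.53 TPM (SD, n = 4). RGS10, a small R12 member best known from immune cells, followed with 42.0 ± 0.813 TPM, and RGS2 with 23.7 ± 4.44 TPM. RGS12, a large R12 member that also carries PDZ and GoLoco domains, lay at 11.5 ± 0.537 TPM and the RZ member RGS19 (also called GAIP) at 10.3 ± 1.12 TPM, with overlapping ranges. Below these came RGS20, the RZ member known for acting on G alpha z, at 3.81 ± 0.382 TPM, RGS5, a gene of pericytes, at 2.61 ± 0.528 TPM, and RGS4 at 1.48 ± 0.38 TPM. RGS16 and RGS17 were close to 0, with 0 to 10 and 0 to 2 counts per library. A library with 0 counts may have held up to 3, a limit that covers counting error only.

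The order of the first 8 members was the same in the 12-week control, from RGS3 at 48.2 ± 2.47 TPM through RGS10 at 42.8 ± 3.18, RGS2 at 26.8 ± 2.92, RGS12 at 12.9 ± 1.43, RGS19 at 8.75 ± 1.36, RGS20 at 3.31 ± 0.858 and RGS5 at 1.45 ± 0.285 to RGS4 at 0.398 ± 0.182. At 12 weeks no neighbours of these 8 overlapped in the control. After PFOS at 12 weeks RGS2 lay at 17.3 ± 5.12 TPM with 0.1 µM and at 16.6 ± 2.84 with 1 µM, and its range then overlapped that of RGS12, at 14.3 ± 0.389 and 13.9 ± 0.999 TPM. Leukocytes are known to carry much RGS10 and RGS19. Of 5 leukocyte markers, CD3E was at or under 3 counts in every library and PTPRC at 0 to 6 in the controls, while in the 6-week control CD14 lay at 136 to 177 and CD68 at 346 to 406. The part of such cells in these levels was not tested. In bulk RNA, fewer cells of a type and less RNA per cell cannot be told apart.

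**Figure D1:**
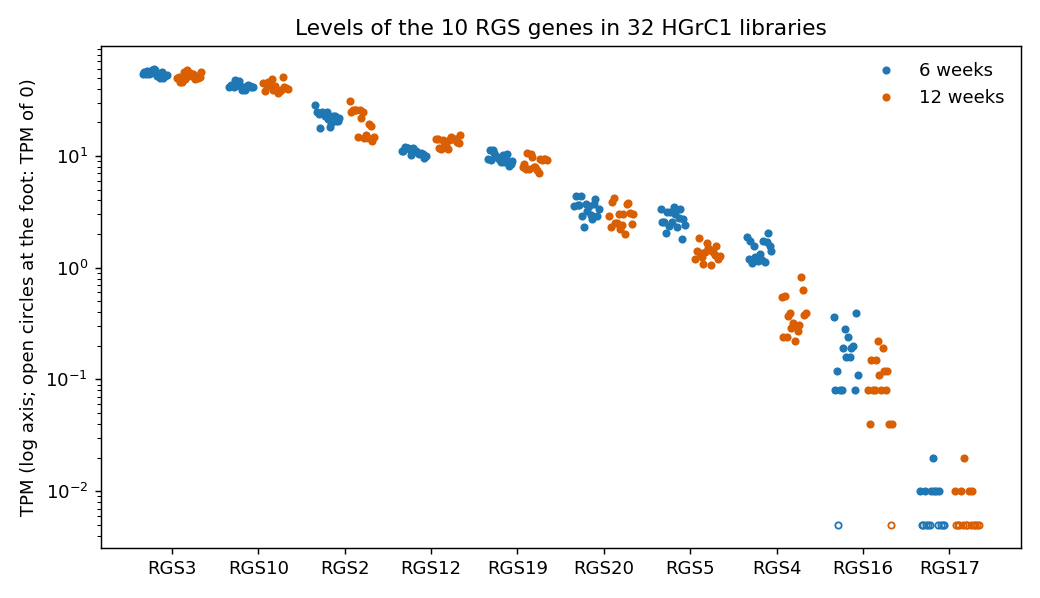
Level of each of the 10 RGS genes in TPM (log axis), with 16 libraries per time (6 weeks blue, 12 weeks orange). Open circles at the foot are libraries with a TPM of 0. RGS3 and RGS10 lie highest, RGS4 and RGS5 are lower at 12 weeks than at 6 weeks, and RGS17 is near 0 throughout.

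To ask whether PFOS changed these genes, each concentration was set against its own control of 6 or 12 weeks, with a call at an adjusted p of at most 0.05 over all genes tested. RGS16 and RGS17 were removed by the filter on low counts. With edgeR and no term for the vial, 0 of the 8 tested members were called at any of the 3 concentrations at either time. The share called among all genes was 0% at 0.01 µM, 4.24% at 0.1 µM and 0.28% at 1 µM after 6 weeks (12836 genes), and 0%, 1.07% and 0.22% after 12 weeks (12742 genes). With the vial as replicate block 1 member, RGS2, was called at 0.1 µM after 12 weeks. Unadjusted p fell under 0.05 for 1, 0 and 0 members at 6 weeks, where 1232, 2665 and 1757 genes did so, and for 1, 3 and 1 members at 12 weeks, where 1080, 1956 and 1115 genes did. DESeq2 called 1 member, RGS2, at 0.1 and at 1 µM after 12 weeks, and 0 in the other 4 comparisons. The same control libraries serve the 3 comparisons of a time.

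RGS2 had the lowest unadjusted p of the members at 0.1 and 1 µM after 12 weeks, and was picked out after its values had been seen. In the 12-week control its 4 libraries held 406, 323, 353 and 349 counts. With 0.01 µM PFOS they held 332, 198, 355 and 305, and with 0.1 µM 327, 188, 201 and 187. With 1 µM they held 251, 243, 172 and 188, so that every library at 1 µM lay below every control library, whereas at 0.1 µM vial 1 reached the control range and the other 3 did not. In CPM, counts scaled to library size by TMM, the mean was 19.7 ± 1.99 in the control, 16.4 ± 3.77 at 0.01 µM, 12.4 ± 3.73 at 0.1 µM and 11.7 ± 2.11 at 1 µM (SD, n = 4). RGS2 is a gene of fast response, known to be induced by cAMP in many cell types.

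At 1 µM the log2 fold change of RGS2 was −0.75 (SE 0.20, 95% interval −1.17 to −0.33, edgeR adjusted p = 0.179), a level 0.593 times that of the control. Groups without overlap were seen in 6.61% of all genes in this comparison, and in 3.34% with PFOS lower. An exact two-sided permutation test gave p = 0.0286, the smallest that 4 against 4 libraries allow. Groups without overlap always give this value, so it adds nothing to the lack of overlap. It was 0.143 after adjustment over the 10 tests of RGS2, which does not cover the choice of RGS2 among the members. At 0.1 µM the log2 fold change was −0.66 (SE 0.20, 95% interval −1.08 to −0.25, adjusted p = 0.132), lower in 4 of 4 vials. At 0.01 µM it was −0.26 (SE 0.19, adjusted p = 0.718), lower in 3 of 4 vials.

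The call on RGS2 depended on the fit. With the vial as replicate block the adjusted p was 0.0417 at 0.1 µM and 0.0551 at 1 µM. DESeq2 on the 16 libraries of the time gave an adjusted p of 0.0169 and 0.00911, and edgeR on all 32 libraries 0.0207 and 0.0215. Over 17 alternatives the adjusted p ranged from 0.0038 to 0.346 at 0.1 µM and from 4.11e-06 to 0.474 at 1 µM, with log2 fold changes of −0.90 to −0.59 and −0.84 to −0.66. Without vial 1 at 0.1 µM, its highest library, the log2 fold change there was −0.90 and the adjusted p 0.0132. Without the control library rich in liver transcripts the log2 fold change was −0.67 at 0.1 µM (adjusted p = 0.346) and −0.76 at 1 µM (adjusted p = 0.424).

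At 6 weeks RGS2 showed no such difference. The control libraries held 363, 317, 298 and 224 counts, and those at 0.01 µM 313, 307, 296 and 317. At 0.1 µM they held 276, 228, 250 and 296 and at 1 µM 293, 269, 266 and 292, all inside the range of the control. The log2 fold changes were 0.04, −0.18 and −0.09 with rising concentration (edgeR adjusted p = 0.943, 0.322 and 0.752), and the interval at 1 µM ran from −0.30 to 0.12. The difference between the PFOS effect at 12 and at 6 weeks was −0.66 at 1 µM (SE 0.23, unadjusted p = 0.00895, adjusted p = 0.262, or −0.67 and 0.329 without the control library rich in liver transcripts) and −0.48 at 0.1 µM (SE 0.23, adjusted p = 0.346). With edgeR 0 members passed this test of the difference at any concentration, as with DESeq2, against 0, 27 and 16 of 12988 genes (0%, 0.208% and 0.123%). Unadjusted p fell under 0.05 for 0, 0 and 1 members, against 972, 1879 and 1571 of these genes.

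**Figure D2:**
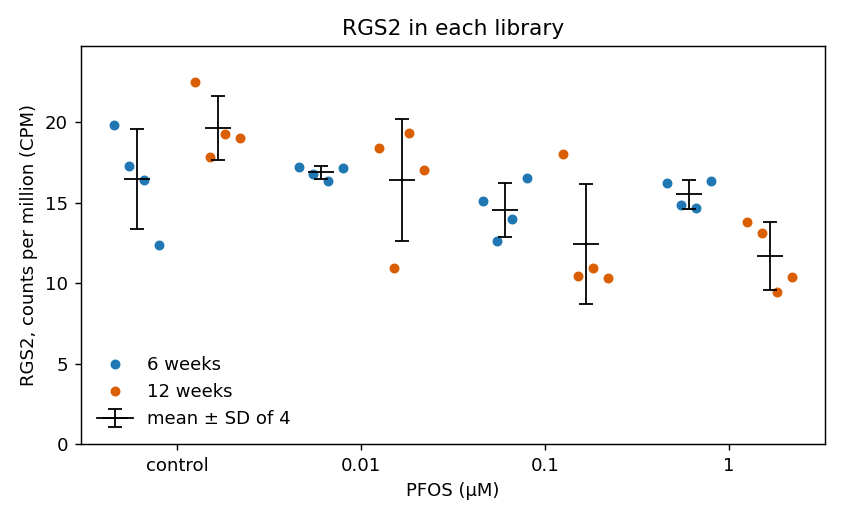
RGS2 in CPM for each of the 32 libraries by PFOS concentration (µM) and time, with the mean and SD of 4 libraries in black. At 12 weeks the 1 µM libraries all lie below the control libraries, and 1 of the 4 libraries at 0.1 µM lies far above the others of its group.

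The remaining R4 members were not called. RGS3 had log2 fold changes of 0.14 (SE 0.06) at 0.01 µM and 0.15 (SE 0.06) at 0.1 µM after 12 weeks, with adjusted p of 0.566 and 0.225. RGS4, with few counts, had log2 fold changes of −0.55 at 0.1 µM (95% interval −1.29 to 0.18, adjusted p = 0.468) and 0.43 at 1 µM (−0.22 to 1.08, adjusted p = 0.709) after 12 weeks, where its intervals were the widest of the 8. Without the control library rich in liver transcripts these were −0.33 and 0.65, and 0 members were called at any concentration. RGS5 ranged from −0.19 to 0.18 over the 6 comparisons, with adjusted p from 0.636 to 0.962. Of the R12 members, RGS10 was 0.20 lower on the log2 scale at 0.1 µM after 12 weeks in a group with overlapping counts, 290 to 311 against 307 to 374 in the control (95% interval −0.38 to −0.02, adjusted p = 0.281). RGS12 had narrow intervals, with log2 fold changes from −0.07 to 0.08 and all bounds between −0.16 and 0.20.

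Among the RZ members, RGS20 was lower than the control in all 6 comparisons, by −0.36 at most (0.01 µM, 12 weeks, 95% interval −0.79 to 0.07, adjusted p = 0.642). At 0.1 µM and 6 weeks its 47 to 60 counts lay below the 61 to 76 of the control without overlap (log2 fold change −0.27, adjusted p = 0.342), as in 12.2% of genes in that comparison. RGS19 ranged from −0.16 to 0.04. For RGS16 and RGS17, 20 exact two-sided permutation tests over the PFOS and time comparisons gave a lowest p of 0.0571 (0.857 after adjustment), for RGS16 at 1 µM between the times. Counts of 0 to 2 for RGS17 cannot show a difference at this depth.

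**Figure D3:**
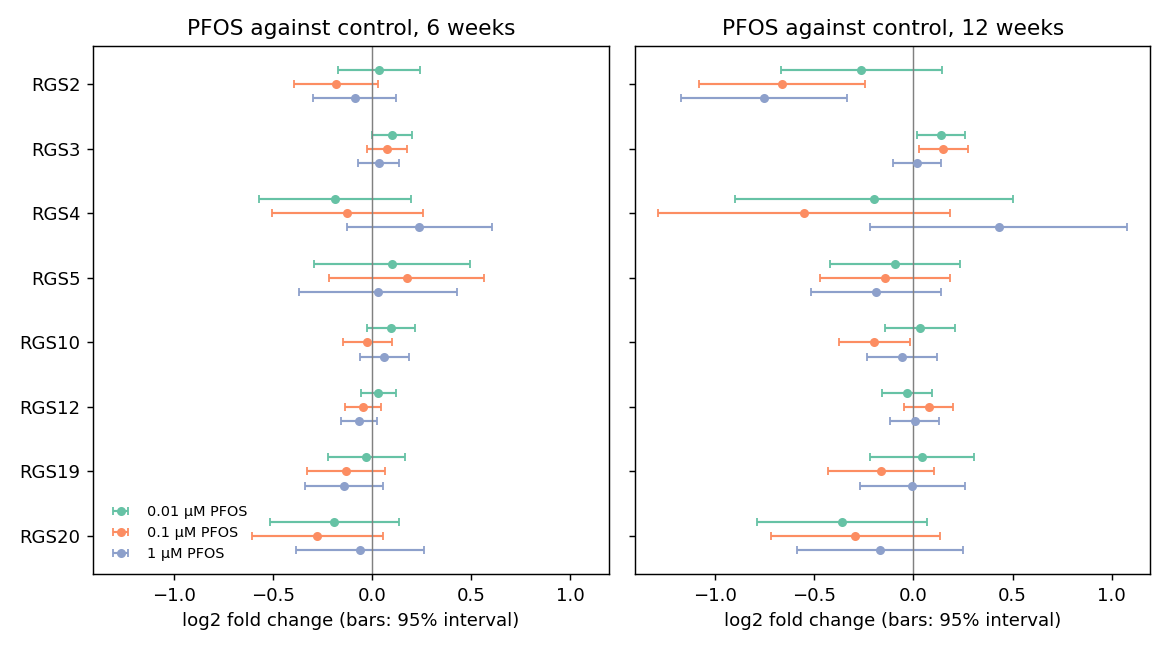
Log2 fold change of each tested RGS gene against the control of the same time (points) with its 95% interval (bars), at 6 weeks (left) and 12 weeks (right), for 0.01, 0.1 and 1 µM PFOS. The intervals are not adjusted for the number of tests. Those of RGS2 at 0.1 and 1 µM and of RGS10 at 0.1 µM, all at 12 weeks, lie wholly below 0. Those of RGS3 at 0.01 µM (6 and 12 weeks) and at 0.1 µM (12 weeks) lie wholly above 0. At 12 weeks the intervals of RGS4 are the widest.

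The genes that RGS proteins work with were read from 8 fixed lists of 77 genes: other RGS-domain genes, G alpha, beta and gamma subunits, receptor kinases and arrestins, effectors and other modulators. Of these, 71 had values and 51 could be tested. At 0.1 µM and 6 weeks 2 were called (3.92%, against 4.24% of all genes), both lower: GNB2, a G beta subunit, with a log2 fold change of −0.14 (adjusted p = 0.0321) and RIC8A, a chaperone of G alpha subunits, with −0.16 (adjusted p = 0.0264). Leaving out single libraries took this count to between 0 and 3, and edgeR on all 32 libraries to 0. In the other 5 PFOS comparisons edgeR called 0 of 51, and DESeq2 called 0, or 1 at 0.1 µM after 12 weeks. The unadjusted edgeR p was under 0.05 for 10 and 10 of the 51 at 0.01 and 1 µM after 6 weeks, against 1232 and 1757 of all 12836 genes. After 12 weeks it was so for 0, 3 and 4 at 0.01, 0.1 and 1 µM, against 1080, 1956 and 1115 of all 12742 genes. By level, 10 of the 71 list genes with values averaged more TPM over the 32 libraries than RGS3, and the other 61 less. GNAS, the G alpha s subunit, averaged 963 ± 44.9 TPM, GNAI2 345 ± 20.2 and GNB1 289 ± 14.2.

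More members differed between the times than with PFOS. Levels after 12 weeks were compared with those after 6 weeks within each treatment, in a fit of all 32 libraries. Time cannot be told apart from passage number or from the handling of the libraries of each time. In the order control, 0.01, 0.1 and 1 µM, 3, 4, 4 and 3 of 8 members were called, against 36.6%, 42.7%, 40.3% and 30.1% of 12988 genes, a share near that of all genes. RGS4 and RGS5 fell and RGS12 rose in all 4 treatments, which 9.87% of genes did downwards and 6.68% upwards. RGS3 rose at 0.01 and 0.1 µM. RGS10, RGS19 and RGS20 were not called in any treatment, with log2 fold changes from −0.29 (RGS20 at 0.01 µM) to 0.11 (RGS10 in the control).

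RGS4 had the largest change of the members. At 6 weeks its control libraries held 60, 39, 55 and 35 counts, those at 0.01 µM 50, 41, 38 and 37, those at 0.1 µM 43, 37, 55 and 37 and those at 1 µM 55, 68, 51 and 47. At 12 weeks the control held 18, 8, 19 and 8, and 0.01 µM 12, 13, 10 and 11. At 0.1 µM there were 7, 10, 9 and 10, and at 1 µM 27, 21, 12 and 12. Within each treatment the times did not overlap, as for 31.3%, 33.2%, 39.7% and 30.4% of genes, and the 35 counts or more of each 6-week library stood against 27 or fewer of each 12-week library. The log2 fold change was −1.82 (SE 0.25) in the control, −1.83 (SE 0.26) at 0.01 µM, −2.25 (SE 0.28) at 0.1 µM and −1.63 (SE 0.23) at 1 µM, 3.54-, 3.55-, 4.76- and 3.09-fold lower (edgeR adjusted p = 6.42e-07, 9.66e-07, 5.35e-08 and 1.55e-06). A call with a change of at least 2-fold downwards was made for 2.69%, 3.01%, 3.42% and 2.73% of genes in these comparisons, and in all 4 of them for 1.73%.

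RGS5, its neighbour on the chromosome, fell less. At 6 weeks it held 214, 166, 164 and 131 counts in the control, 199, 152, 208 and 166 at 0.01 µM, 229, 195, 148 and 184 at 0.1 µM and 218, 120, 182 and 163 at 1 µM. At 12 weeks it held 81, 96, 129 and 93 in the control, 83, 74, 99 and 117 at 0.01 µM, 101, 97, 71 and 92 at 0.1 µM and 85, 104, 80 and 83 at 1 µM. Within each treatment the times did not overlap, although 1 control library at 12 weeks (129) came close to the lowest at 6 weeks (131). The shares of genes without overlap are those given for RGS4. The log2 fold changes were −0.76, −0.95, −1.07 and −0.97 (SE 0.18 each; edgeR adjusted p = 0.00114, 6.97e-05, 1.41e-05 and 0.000108), and a 2-fold change was reached at 0.1 µM alone. Without the 12-week control library rich in liver transcripts the control values were −2.04 for RGS4 and −0.90 for RGS5, both still called, and that of RGS12 was 0.29 (adjusted p = 7.2e-05).

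RGS5 and RGS4 are both known from mural cells, the pericytes and smooth muscle of vessels. Of 9 mural markers, KCNJ8 and MYH11 were at or under 3 counts in every library, and the sum of the list lay between 13091 and 15866 counts at 6 weeks and between 12152 and 16196 at 12 weeks. In the control NOTCH3 fell by 0.78 and ACTA2 by 0.85 on the log2 scale (adjusted p = 2.99e-06 and 5.95e-05), DES rose by 0.41 (adjusted p = 0.00191), and PDGFRB had a log2 fold change of −0.0083 (adjusted p = 0.934). The granulosa list summed to 3612 to 4173 counts at 6 weeks and 3132 to 3614 at 12 weeks. MCAM fell by 0.33 (adjusted p = 0.00027) in the control and was not called at 0.1 or 1 µM. Of the 3 endothelial markers, PECAM1 fell in all 4 treatments, with a log2 fold change of −2.65 in the control (adjusted p = 3.79e-06), from 15 to 20 counts to 2 to 4. In the control VWF and CDH5 had log2 fold changes of −0.59 and −0.33 and were not called (adjusted p = 0.119 and 0.602). The endothelial list summed to 29 to 45 counts at 6 weeks and 10 to 24 at 12 weeks. The leukocyte list summed to 496 to 662 and 306 to 541 counts. Its member CD68 had a log2 fold change of −0.12 in the control (adjusted p = 0.419), while CD14 fell in all 4 treatments, with −0.88 in the control (adjusted p = 0.000202). CYP11A1, which cuts the side chain of cholesterol in steroid synthesis, also fell in all 4, with −2.03 in the control (adjusted p = 7.27e-05). Each of the called control changes kept its direction and its call without the library rich in liver transcripts. PDGFRB, VWF, CDH5 and CD68 were not called with or without it. The part of these markers in the fall of RGS4 and RGS5 was not tested.

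RGS12 rose by less, but its libraries varied little. At 6 weeks it held 554, 573, 607 and 598 counts in the control, 594, 609, 572 and 613 at 0.01 µM, 573, 559, 563 and 547 at 0.1 µM and 552, 561, 544 and 550 at 1 µM. At 12 weeks it held 748, 743, 656 and 632 in the control, 691, 712, 667 and 645 at 0.01 µM, 702, 753, 740 and 736 at 0.1 µM and 691, 695, 687 and 736 at 1 µM. Every 12-week library, from 632 counts up, exceeded every 6-week library, at most 613. The log2 fold changes were 0.26, 0.20, 0.38 and 0.33 (SE 0.05 each; edgeR adjusted p = 0.000151, 0.00194, 3.14e-07 and 5.51e-06), or 1.19-, 1.15-, 1.3- and 1.26-fold.

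**Figure D4:**
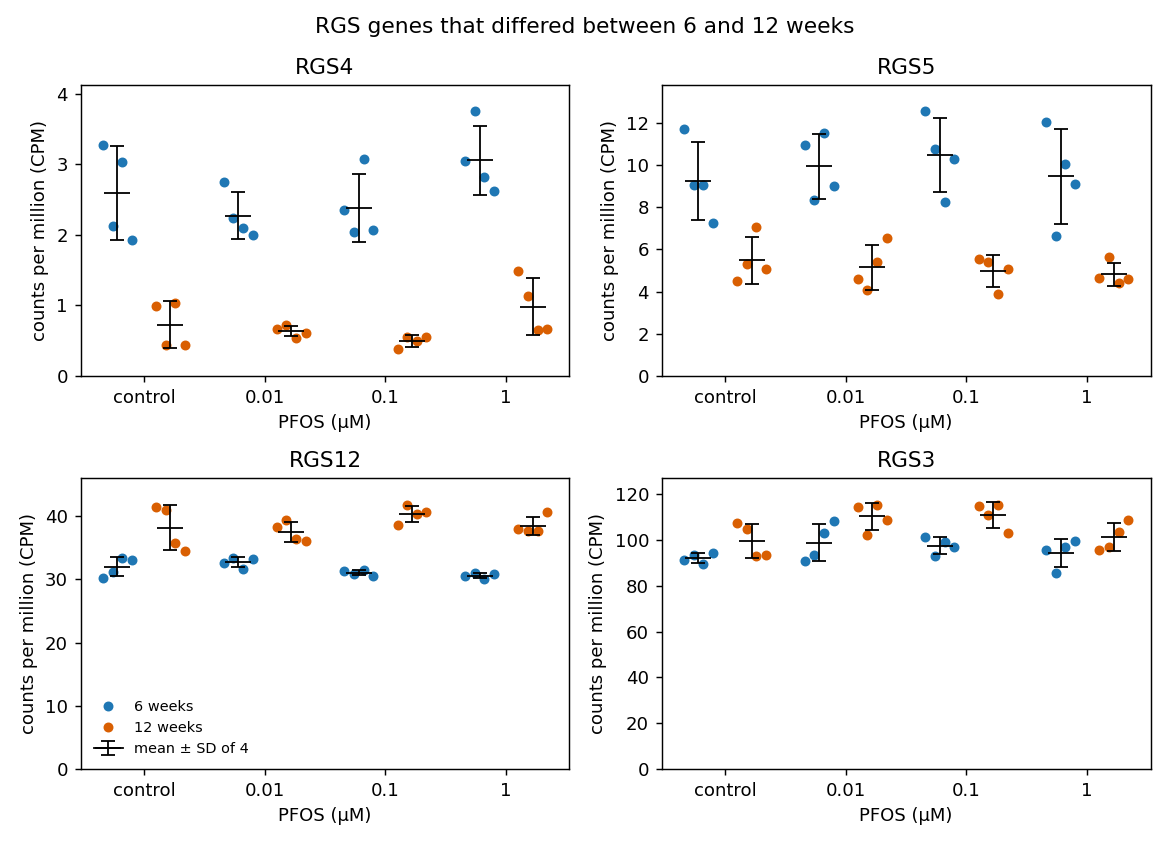
CPM of RGS4, RGS5, RGS12 and RGS3 in each library by PFOS concentration (µM) and time, with the mean and SD of 4 libraries in black. RGS4 and RGS5 lie lower and RGS12 higher at 12 weeks in every treatment, and RGS3 overlaps between the times in 3 of 4 treatments.

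RGS3 gave different answers in counts and per length. At 6 weeks the control held 1670, 1717, 1626 and 1704 counts, 0.01 µM 1650, 1707, 1859 and 1999, 0.1 µM 1848, 1680, 1772 and 1731, and 1 µM 1730, 1551, 1753 and 1775. At 12 weeks the control held 1935, 1896, 1704 and 1712, 0.01 µM 2067, 1850, 2117 and 1948, 0.1 µM 2084, 1992, 2114 and 1863, and 1 µM 1737, 1791, 1884 and 1969. Only at 0.1 µM were the 12-week libraries all above the 6-week ones. In that comparison 39.7% of genes did not overlap, in either direction. The log2 fold changes in counts were 0.11, 0.16, 0.19 and 0.10 (SE 0.06 each; edgeR adjusted p = 0.117, 0.0225, 0.00805 and 0.185). Without the library rich in liver transcripts the control value was 0.14 (adjusted p = 0.0565). The call at 0.01 µM was lost in 6 of 15 alternatives, among them the library totals without TMM factors (adjusted p = 0.0558) and the removal of vial 1 or 2 at 6 weeks (0.11 and 0.0746) or of vial 1 or 3 at 12 weeks (0.06 and 0.0741). That at 0.1 µM held in all 15. In TPM RGS3 was lower at 12 weeks in the control without overlap, 48.2 ± 2.47 against 55.4 ± 1.53 (48.97 ± 2.31 without that library, n = 3). The share of genes without overlap in TPM was not counted. With PFOS the TPM of the times overlapped. The means were 53.6 ± 4.48 against 57.0 ± 2.88 at 0.01 µM, 52.6 ± 2.58 against 53.5 ± 4.04 at 0.1 µM and 52.1 ± 2.77 against 52.4 ± 2.76 at 1 µM. These differences in TPM were not tested.

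The ratio of count to TPM carries the transcript length that RSEM assigned to a gene, and for RGS3 it rose with time. This comparison was added after the values had been seen. Relative to the median gene of each library, the implied length was longer at 12 weeks by 18.3% in the control (19.4% without that library), 12.5% at 0.01 µM, 13.9% at 0.1 µM and 11.1% at 1 µM. The libraries of the times did not overlap in the first 3 treatments, as for 4.55%, 7.8% and 1.17% of 10531 genes, and overlapped at 1 µM. A gain of at least this size was seen in 0.095%, 0.209%, 0.294% and 0.503% of these genes. For RGS2, RGS5, RGS10 and RGS19 the implied length moved by −0.404% to 1.97%, and for RGS12 by −4.9% to 1.33%. RGS3 is a gene with long and short transcripts from separate starts. Which of them were counted was not tested.

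**Figure D5:**
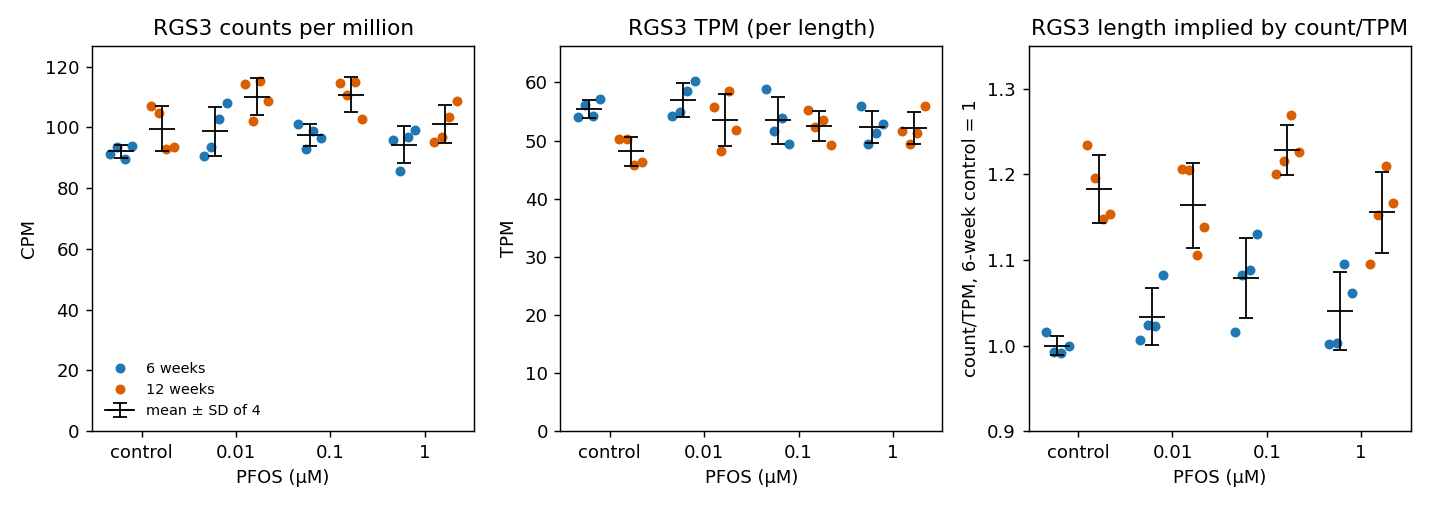
RGS3 in each library by PFOS concentration (µM) and time as CPM (left), as TPM (middle) and as the length implied by count over TPM, with the 6-week control at 1 (right, axis not from 0), with mean and SD of 4 libraries in black. CPM lie higher at 12 weeks on average, TPM does not, and the implied length lies higher in all 4 treatments.

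RGS2 did not pass between the times in any treatment. Its log2 fold change was 0.25 in the control, −0.04 at 0.01 µM, −0.23 at 0.1 µM and −0.41 at 1 µM (edgeR adjusted p = 0.225, 0.867, 0.305 and 0.0729), and 0.26 in the control without the library rich in liver transcripts (adjusted p = 0.26). At 1 µM the 266 to 293 counts of 6 weeks did not overlap the 172 to 251 of 12 weeks, as in 30.4% of genes, and the adjusted p was 0.00919 with edgeR on the 8 libraries of the comparison, 0.0345 with the vial as replicate block, 0.0386 with DESeq2 and 0.0465 without vial 1 at 12 weeks. At 0.1 µM it was 0.0221 without vial 1 at 12 weeks.

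Of the 51 tested genes of the G-protein lists, 17, 18, 19 and 16 were called between the times (33.3%, 35.3%, 37.3% and 31.4%, against 36.6%, 42.7%, 40.3% and 30.1% of all genes), 9, 12, 13 and 8 of them higher. Among other RGS-domain genes 3, 4, 2 and 1 of 10 were called. In the control RGS7 and RGS9, members of the R7 subfamily known from neurons and photoreceptors, fell by 0.79 and 0.75 on the log2 scale (adjusted p = 0.0173 and 0.0421), whereas AXIN1, the scaffold of Wnt signaling with an RGS domain, rose by 0.21 (adjusted p = 0.00291). Also in the control, ARRB2, an arrestin that uncouples receptors from G proteins, rose by 0.60, the G gamma subunit GNG7 by 0.77 and the G alpha i subunit GNAI2 by 0.20, while PLCB4, an effector of G alpha q, fell by 0.39 and ADCY6, an adenylyl cyclase, by 0.20 (adjusted p = 3.05e-06, 0.00161, 0.000191, 0.0085 and 0.00236). The effector ARHGEF12 fell there by 0.25 (edgeR adjusted p = 3.92e-05). AXIN1, ARRB2 and GNAI2 rose, and ADCY6 and ARHGEF12 fell, in all 4 treatments. RGS7 also fell at 0.01 µM but was not called at 0.1 or 1 µM. PLCB4 and RGS9 were called lower in the control alone. Without the library rich in liver transcripts 16 list genes were called in the control, RGS7 was not (log2 fold change −0.70, adjusted p = 0.0509), and the other genes named here were. These genes were chosen for mention after their values had been seen.

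The genes most like each changed member over the 32 libraries were found among 12614 genes by Pearson's r of log2(CPM + 1). For RGS4 they were ANKRD1 (0.965), F2RL2 (0.963) and SERPINE2 (0.962), and for RGS5 TRIB2 (0.929), SH3GLB1 (0.928) and HNMT (0.925). For RGS12 they were DOCK1 (0.953), MTA1 (0.949) and AJUBA (0.934), and for RGS3 CDKN2C (0.913), SSBP3 (0.911) and PCIF1 (0.898). All of these libraries share the contrast of 6 with 12 weeks, which any gene that moved with time takes part in. Within the 16 libraries of 6 weeks r was 0.8 for RGS4 with ANKRD1 and 0.244 for RGS12 with DOCK1, and within those of 12 weeks 0.711 and 0.887. RGS4 and RGS5 had an r of 0.818 with each other over all libraries, −0.0975 within 6 weeks and 0.0595 within 12 weeks. For RGS2, which was added to this search after its values had been seen, LOC102724428 (0.822), NFIL3 (0.804) and JUNB (0.791) came first, with 0.848, 0.841 and 0.831 within the 12-week libraries.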

How the data were processed

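Stranded poly(A) libraries of HGrC1 cells were sequenced on a DNBSEQ platform. The submitters' processing notes name HISAT2 2.0.4, Bowtie2 2.2.5, RSEM 1.2.8 and GRCh38.p14. RSEM shares reads that match several transcripts by estimate, so values of genes with near copies or several isoforms, such as RGS3, carry that estimate. Expected counts from RSEM were deposited by the authors for each gene and were rounded to whole numbers here. TPM values, also deposited, were used for levels between genes and for the implied length. The FPKM values and normalized values were not used. Groups and vials came from the sample labels, and 0 columns were left unmapped. The members and gene lists were chosen with earlier results of these data known. All members are named. From the other lists the genes with an adjusted p of at most 0.05 in a PFOS comparison are named, at most 3 per list and comparison, and for each changed member the 3 genes most like it. List genes that changed with time, and markers, were named after their values had been seen.

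Differences were tested in R 4.3.3 by the quasi-likelihood method of edgeR 4.0.16 (robust, with TMM factors and its own filter on low counts), two-sided, with Benjamini-Hochberg adjustment over all genes tested. PFOS groups were compared with the control in a fit of the 16 libraries of a time, and the times, and the difference of the PFOS effect between them, in a fit of all 32. A call needed an adjusted p of at most 0.05. Alternatives were DESeq2 1.42.0, other scalings, filters and sets of libraries, a block for the vial and the omission of single libraries. Members removed by the filter, and RGS2, were also tested by exact permutation of the mean log2(CPM + 1). The genes most like a member were sought where counts averaged 10 or more, and the implied length where they averaged 100 or more. After these fits the test was also tried on counts simulated from the means and spreads of these data, with known changes. Its outcome is not given here.

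By the study's methods each thawed vial was divided over the 4 groups, and the labels number the replicates. These numbers are taken here to pair the libraries. The main fits held no term for the vial, and fits with it are given as alternatives. Mean correlations of same-numbered libraries lay between 0.055 and 0.124 at 6 weeks (6 pairs of groups), between −0.161 and 0.154 at 12 weeks, and between 0.0294 and 0.093 across times. Intervals and limits cover counting error and the spread between the libraries of these 4 vials only.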

Additional observations from a re-analysis of the deposited data

Results flagged for a closer look

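In 7 of 80 sets of 4 libraries (10 members in 8 groups), 1 library lay apart from the other 3 by Dixon's 95% criterion for 4 values. For normally distributed values chance alone gives about 1 in 20. For RGS2 it was vial 1 at 0.1 µM and 12 weeks, 18.0 CPM, with 327 counts against 187 to 201 in the others. For RGS12 it was vial 4 at 1 µM and 12 weeks, 40.6 CPM. For RGS19 it was vial 4 of the 12-week control, 8.73 CPM, and for RGS20 vial 2 of the 6-week control, 4.14 CPM. For RGS17 a single count set 1 library apart at 0.01 µM and 6 weeks (0.0541 CPM), at 1 µM and 6 weeks (0.0553 CPM) and in the 12-week control (0.0554 CPM). A lone count among counts of 0 is always flagged, so the rate of 1 in 20 does not apply to RGS17 or to the total of 7.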

How the results depend on the processing

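The number of members called at 0.1 µM after 12 weeks went from 0 to 1, RGS2, with the replicate block, with DESeq2 on 16 or 8 libraries and with edgeR on all 32, and ranged from 0 to 1 when single libraries were left out. At 1 µM after 12 weeks it went from 0 to 1, again RGS2, with DESeq2 on 16 or 8 libraries, with edgeR on the 8 libraries of the comparison and with edgeR on all 32, and stayed at 0 when single libraries were left out. The cause was not tested. Between the times, the block with the vial added RGS2 at 1 µM, and it changed no other call of a member. In the other comparisons, PFOS, time and interaction, the number of members called stayed within 1.5 times its value. In CPM in place of TPM, the log2 ratio of RGS3 between the times was 0.16 against −0.09 at 0.01 µM and 0.19 against −0.02 at 0.1 µM. In TPM the libraries of the times overlapped at these concentrations, and the TPM ratios were not tested. RGS4, RGS5 and RGS12 were called between the times in all alternatives that could test them. RGS4 did not reach 10 counts in every library and drops out under that filter. For 86 pairs of a member and a comparison that were never called, 68 alternative values had the other sign, 60 of them under 0.1 on the log2 scale and 0.21 at most. Same-numbered libraries of the control and 1 µM at 12 weeks had a mean correlation of −0.161. Those of 1 µM with 0.01 and 0.1 µM at that time had 0.0587 and 0.0758. The negative value therefore cannot be laid on 1 µM rather than on the control. No pair of groups had a mean above 0.154, so vial numbers, and blocked values, are uncertain at every concentration. Depth limits RGS4, RGS16 and RGS17 most.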

Other observations

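RGS4 and RGS5 lie on chromosome 1 with their 3′ ends 65497 bases apart, RGS4 on the plus strand (163068871 to 163076802) and RGS5 on the minus strand (163142299 to 163321735) of GRCh38. Because both fell between 6 and 12 weeks, the other genes with values within 1 Mb of them were looked up after the values had been seen. There were 9, of which 7 could be tested. In the control C1orf226 fell by 0.40 on the log2 scale and UHMK1 by 0.14 (edgeR adjusted p = 0.000332 and 0.0158), whereas NUF2, whose start lies 219 bases from that of RGS5, rose by 0.29 (adjusted p = 0.00495). NOS1AP (−0.29), UAP1 (−0.09), DDR2 (−0.0086) and HSD17B7 (0.0034) did not pass in the control (adjusted p = 0.103, 0.508, 0.924 and 0.983). NOS1AP passed in the PFOS cultures, with log2 fold changes of −0.51, −0.56 and −0.36 in the order of concentration (adjusted p = 0.00475, 0.00207 and 0.046), while UAP1, DDR2 and HSD17B7 passed in none. C1orf226 fell in all 3 PFOS treatments and UHMK1 at 0.1 and 1 µM. NUF2 rose at 0.01 and 0.1 µM, by 0.40 and 0.24 (adjusted p = 0.000148 and 0.0154), and had a log2 fold change of 0.11 at 1 µM (adjusted p = 0.333). In the control the 3 calls held without the 12-week library rich in liver transcripts.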
